A study of Mus musculus with 8 samples.

Results

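Grb10 and 9 other imprinted genes (Plagl1, Peg3, Zrsr1, Igf2r, Impact, Mest, Cdkn1c, Peg13 and Snrpn) were described in macrophages with and without a Men1 knockout. They were found by gene name in the deposited count table, which matched 10 of 54532 gene rows. The 10 were chosen by the measured M_KO and M_WT levels, with that comparison already known, so their values in it are a description and were given no p-value. RNA was sequenced from macrophages of the peritoneal cavity of mice, collected after stimulation with thioglycollate broth, a sterile irritant used to recruit such cells. There were 3 M_KO libraries (M_KO_5944, M_KO_5645 and M_KO_5642), 3 M_WT libraries (M_WT_5643, M_WT_6258 and M_WT_6255), 1 F_KO library and 1 F_WT library, each named by its group and animal number. KO and WT are the labelled genotype at Men1, which encodes menin, a nuclear scaffold protein that works with histone methyltransferases. The letters M and F are kept as written, since the labels do not spell them out. The promoter or cell type driving the deletion, the strain and the age of the mice were not given in the sources used here.

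An imprinted gene is transcribed mainly from the copy inherited from 1 parent. The difference between the copies rests on DNA methylation that is set in the egg or the sperm and survives into adult tissue, often at a CpG-rich region near a promoter. Grb10 is a known case of mixed imprinting in mice, expressed from the maternal copy in most tissues and from the paternal copy in neurons. Its protein is an adaptor that binds activated insulin and IGF1 receptors and restrains their signalling. Read counts per gene do not separate the parental copies, so the values below are totals over both.

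Totals ran from 18206427 to 22853583 counts per library. Levels are CPM, counts relative to library size after TMM scaling, and 3 counts, the most that a count of 0 allows, equal 0.120 to 0.170 CPM. Men1 had 8.15, 6.45 and 8.42 CPM in M_KO and 25.7, 17.1 and 21.4 CPM in M_WT, and 11.7 CPM in F_KO against 18.1 CPM in F_WT. The 9 macrophage markers together held 18119 to 20783 CPM in M_KO and 20931 to 32212 CPM in M_WT, so the labelled cell type was present in both genotypes, at a lower summed level in M_KO. In bulk RNA, fewer cells of a type and less RNA per cell cannot be told apart.

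Grb10 (ENSMUSG00000020176, GRCm38 chromosome 11, 11930508 to 12038683, minus strand) was at low counts in WT macrophages and higher in every KO library. It had 263, 262 and 135 counts in M_KO, against 14, 22 and 21 counts in M_WT. Scaled for depth, these were 14.9, 13.4 and 5.39 CPM in M_KO and 0.69, 1.17 and 1.06 CPM in M_WT. All M_KO libraries lay above all M_WT libraries, and M_KO_5642 was the lowest of the M_KO libraries. The log2 fold change, M_KO over M_WT, was 3.51 (SE 0.47, edgeR, n = 3 each). It stayed between 3.27 and 3.85 when any 1 of the 6 libraries was left out. The F libraries, which lie outside the comparison that chose the genes, gave 1100 counts (52.5 CPM) in F_KO and 34 counts (1.48 CPM) in F_WT. That is a ratio of 35.5, with a 95% exact interval of 25.3 to 51.6 that covers counting error only, from 1 library per genotype. The F_KO library held the highest Grb10 level of the 8, and the 4 KO libraries lay above the 4 WT libraries.

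Per gene length, Grb10 stood higher among the 10 genes in KO than in WT. It averaged 1.22 ± 0.57 FPKM (fragments relative to gene length and library size) in M_KO and 0.107 ± 0.028 FPKM in M_WT (SD, n = 3 each). Ordered by mean FPKM it stood 5th in M_KO and 8th in M_WT, and 3rd in F_KO (5.75 FPKM) against 8th in F_WT (0.160 FPKM). Impact led the order in all 4 groups, with 18.96 ± 1.97 FPKM in M_KO and 25.1 ± 5.76 FPKM in M_WT, followed by Igf2r with 11.9 ± 5.96 FPKM in M_KO and 19.5 ± 1.0 FPKM in M_WT. The next below Grb10 in M_KO was Zrsr1 (0.976 ± 0.181 FPKM), and the libraries of the 2 genes overlapped there.

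**Figure D1:**
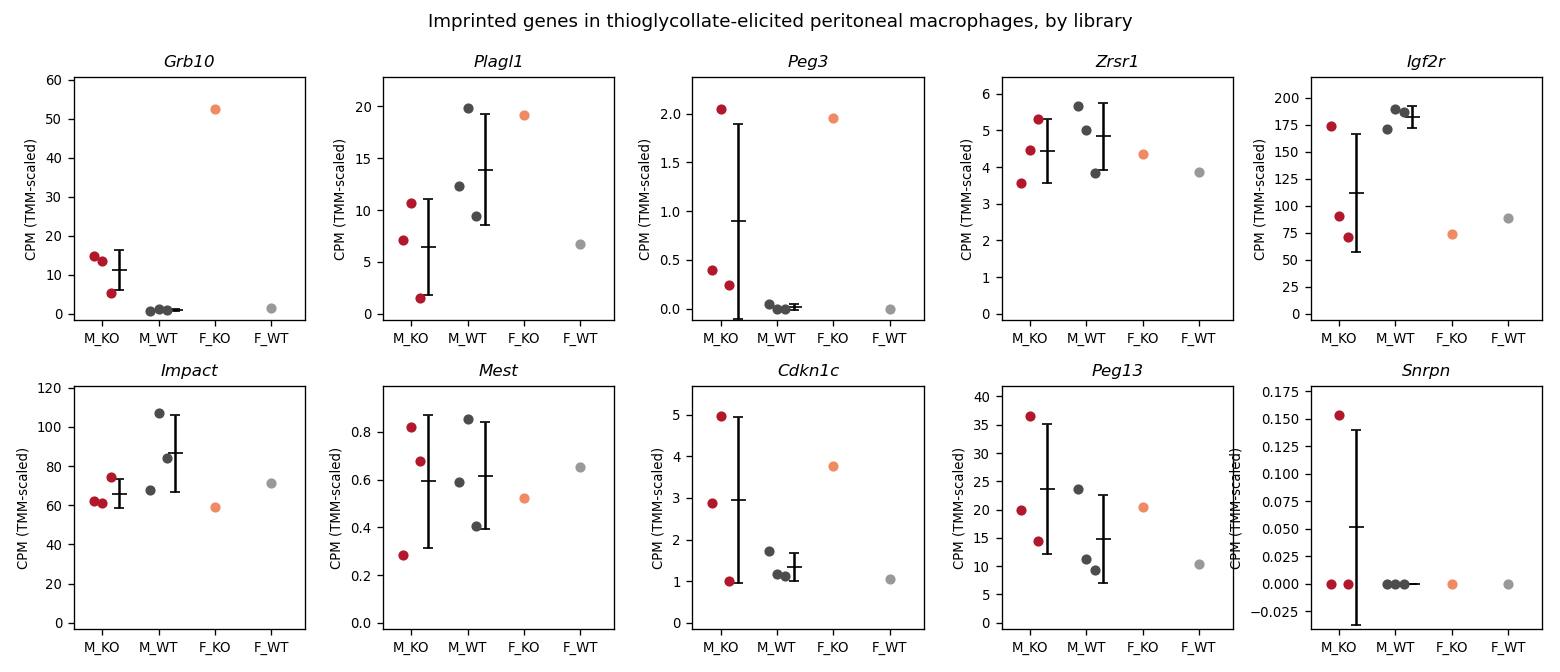
Level of each of the 10 imprinted genes in TMM-scaled CPM (y axis, linear, 1 scale per panel), with 1 point per library in the order M_KO, M_WT, F_KO and F_WT. The horizontal bar is the mean and the error bar the SD of 3 libraries, while F_KO and F_WT have 1 library each and no bar. For Peg3 and Snrpn the SD exceeds the mean, and the error bar runs below 0. Grb10 and Peg3 are the genes in which all KO points lie above all WT points.

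Peg3 (ENSMUSG00000002265, chromosome 7, 6703892 to 6730431, minus strand) was the other member higher in every KO library. It is a paternally expressed gene for a zinc finger protein. It had 7, 40 and 6 counts in M_KO and 1, 0 and 0 counts in M_WT, then 41 counts in F_KO and 0 counts in F_WT. M_KO_5645 held most of the M_KO counts, and the mean of 0.895 CPM in M_KO became 0.318 CPM without that library. Summed over libraries, the ratio of M_KO to M_WT was 50.1, with a counting interval of 8.61 to 2016 because M_WT had 1 count. F_KO was at least 15.0-fold higher than F_WT, taking 3 counts as the most that F_WT could hold. Peg3 had too few counts to pass edgeR's expression filter, so no edgeR fold change was made.

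Cdkn1c, the maternally expressed gene for the cell cycle inhibitor p57, was less clear. It had 2.89, 4.97 and 0.998 CPM in M_KO and 1.72, 1.17 and 1.11 CPM in M_WT. The groups overlapped, since M_KO_5642 was the lowest of all 6. The log2 fold change was 1.13 (SE 0.58) and 0.52 without M_KO_5645. In the F pair Cdkn1c had 3.77 CPM in F_KO and 1.04 CPM in F_WT, a ratio of 3.62 (95% exact interval 2.27 to 5.97). Peg13, a paternally expressed long noncoding RNA, had 19.9, 36.5 and 14.5 CPM in M_KO and 23.7, 11.2 and 9.37 CPM in M_WT. M_WT_5643 exceeded 2 of the M_KO libraries, so these groups overlapped too. The log2 fold change of Peg13 was 0.67 (SE 0.46), with 0.21 without M_KO_5645 and 1.20 without M_WT_5643. F_KO had 20.4 CPM and F_WT 10.4 CPM of Peg13, a ratio of 1.97. Peg13 lies in Trappc9 on the same strand, and reads from the 2 genes may be shared.

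Plagl1, a paternally expressed zinc finger transcription factor known to act on other imprinted genes, differed in direction between the M and F libraries. It had 7.13, 10.7 and 1.52 CPM in M_KO and 12.4, 19.8 and 9.47 CPM in M_WT, with a log2 fold change of -1.11 (SE 0.65). That value was -1.70 without M_KO_5645, -0.64 without M_KO_5642 and -0.50 in the fit of all 8 libraries. M_KO_5645 lay above M_WT_6255, so the groups overlapped. In the F pair it had 19.1 CPM in F_KO and 6.74 CPM in F_WT, a ratio of 2.84 (95% exact interval 2.36 to 3.44). The M values helped choose the genes and F has 1 library per genotype, so no test of the difference between M and F is given.

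Igf2r, the maternally expressed receptor that carries lysosomal enzymes and clears IGF2, had 174.1, 90.5 and 70.7 CPM in M_KO and 170.7, 189.2 and 186.6 CPM in M_WT. M_KO_5944 stood within the M_WT range and the other 2 M_KO libraries below it. The log2 fold change was -0.71 (SE 0.32), or -1.18 without M_KO_5944, and the F pair differed by -0.27 on the log2 scale, with 73.5 CPM in F_KO and 88.8 CPM in F_WT. Igf2r overlaps Airn, an imprinted noncoding RNA on the opposite strand, which had 1.36, 0.973 and 0.798 CPM in M_KO and 1.03, 0.692 and 1.42 CPM in M_WT. Impact, a paternally expressed regulator of the amino acid sensing kinase GCN2, had 62.2, 60.9 and 74.5 CPM in M_KO and 68.0, 107.4 and 84.2 CPM in M_WT. M_KO_5642 lay above M_WT_5643, and the log2 fold change was -0.40 (SE 0.19).

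The remaining 3 members showed no separation, and of these Mest and Snrpn were low. Zrsr1, a paternally expressed splicing factor gene inside an intron of Commd1, had 3.56, 4.46 and 5.31 CPM in M_KO and 5.66, 5.01 and 3.85 CPM in M_WT (log2 fold change -0.13, SE 0.25). Mest, a paternally expressed gene for a hydrolase-like protein, had 0.28, 0.82 and 0.68 CPM in M_KO and 0.59, 0.85 and 0.41 CPM in M_WT (log2 fold change -0.04, SE 0.52). Snrpn, the paternally expressed spliceosomal protein SmN, had 3 counts in M_KO_5645 and 0 in each of the other 7 libraries, and it failed the filter. The groups overlapped for each of these 3 genes. Without a stated strand setting, Zrsr1 and Commd1, and Mest and Copg2, could share reads across strands. Snrpn overlaps Gm38393 and Snurf on its own strand, which had 3 and 0 counts in all 8 libraries together. Reads there may be shared or not assigned to Snrpn, so its count may not show its level.

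The 10 genes did not differ in 1 direction in M_KO. Of the 8 that passed the filter, 3 had a positive and 5 a negative log2 fold change, with a median of -0.09, beside 0.01 over the 13646 genes tested. Among those 8 the M libraries did not overlap for 1, Grb10, where 16.0% of all genes tested had no overlap. More than 2-fold higher in M_KO were 2 of the 8, Grb10 and Cdkn1c, beside 3.61% of all genes. edgeR called 0 of the 8 at an adjusted p of 0.05, where it called 0.022% of all genes, and 0.0147% as higher in M_KO. At an unadjusted p under 0.05 it held 1 of the 8, beside 9.56% of all genes. DESeq2 called 2 of the 9 it could adjust, Grb10 and Peg3, both higher in M_KO, beside 1.21% of all genes and 0.611% as higher. The authors' deposited table also called 2, beside 0.553% of its rows. These shares belong to the comparison that chose the genes, and nothing is read from them. In the F pair, 3 of the 8 tested members (Grb10, Cdkn1c and Plagl1) were more than 2-fold higher in F_KO, beside 4.81% of all genes, and 0 were more than 2-fold lower, beside 5.72%. With Peg3, which was not tested, 4 of the 10 members were more than 2-fold higher in F_KO, beside 1780 of all 54532 gene rows. Of those rows, 28170 had no count in any library.

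Imprinted genes beyond the 10 were read from a list of 77, of which 76 were in the table, 41 passed the filter and 13 had no count in any library. edgeR called 0 of the 41, beside 0.022% of all genes, with a smallest adjusted p of 0.421. At an unadjusted p under 0.05 there were 4, beside 9.56% of all genes. DESeq2 called 1 of the 47 it could adjust, Ndn, higher in M_KO, beside 1.21% of all genes. The median log2 fold change of the 41 was 0.10, beside 0.01 over all genes tested, with 27 positive and 14 negative. The M libraries did not overlap for 7 of them, 4 higher (beside 9.09% of all genes) and 3 lower (beside 6.95%). These 7 of 41 stand beside 16.0% of all genes tested, so separation in M was about as frequent in the list as among all genes.

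In the F pair, 7 of the 41 tested genes were more than 2-fold higher in F_KO, beside 4.81% of all genes, and 3 were more than 2-fold lower, beside 5.72%. With 1 library per genotype this was not tested. The 7 were Ndn, Peg12, Calcr, Osbpl5, Smoc1, Peg10 and Mcts2, and the 3 were Dhcr7, Htr2a and Tspan32. Peg10, a retrotransposon-derived gene, had 65.9 CPM in F_KO and 21.0 CPM in F_WT. Its M libraries overlapped, with 63.0, 28.4 and 19.6 CPM in M_KO and 34.8, 20.6 and 35.4 CPM in M_WT (log2 fold change 0.28, SE 0.45, edgeR adjusted p = 0.865). Calcr, the calcitonin receptor, had 7.45 CPM in F_KO and 1.13 CPM in F_WT, with 20.5, 4.15 and 0.519 CPM in M_KO and 5.91, 2.98 and 5.27 CPM in M_WT, where the groups overlapped. Over all 76 genes in the table, tested or not, 17 were more than 2-fold higher in F_KO and 5 lower. Beside them, 1780 of all 54532 gene rows were higher and 1642 lower, with 28170 rows at no count in any library. Among those not tested, the amino acid transporter gene Slc38a4 had 51 counts in F_KO and 4 in F_WT, and the growth factor gene Igf2 had 14 in F_KO and 0 in F_WT. The interaction of genotype and letter, fitted by edgeR over all 8 libraries with the F libraries assumed to vary like the others, was called for 0 of the 41, beside 0.0218% of all genes. Peg10, Calcr, Slc38a4 and Igf2 were named after their values were seen.

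Ndn (ENSMUSG00000033585, chromosome 7, 62346569 to 62350262, plus strand) was the imprinted gene outside the 10 whose pattern came closest to that of Grb10 and Peg3. It encodes necdin, a growth-restraining protein of the MAGE family, from the paternal copy. It had 40, 76 and 18 counts in M_KO and 1, 5 and 2 counts in M_WT, then 51 counts in F_KO and 2 counts in F_WT. All 4 KO libraries were above all 4 WT libraries, and Ndn passed the filter through its KO libraries. In M the log2 fold change was 3.99 (SE 0.85), and the adjusted p was 0.421 by edgeR and 0.00161 by DESeq2. Without M_KO_5645 the DESeq2 log2 fold change was 3.42 and the adjusted p 0.105. When any other M library was left out, the adjusted p was 1.55e-05 to 0.0324 and the log2 fold change 3.64 to 4.92, the highest without M_WT_6258. In the F pair the ratio was 28.0 (95% exact interval 7.37 to 237.6).

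Of the other imprinted genes whose M libraries did not overlap, none was called by edgeR or DESeq2. Smoc1, a secreted calcium-binding protein, had 1.41, 0.768 and 1.04 CPM in M_KO and 0.197, 0.266 and 0.557 CPM in M_WT (log2 fold change 1.63, SE 0.51, edgeR adjusted p = 0.474). It had 1.81 CPM in F_KO and 0.348 CPM in F_WT. Smoc1 and Ndn were the genes of the list whose 4 KO libraries all exceeded the 4 WT libraries. That is 2 of the 41 tested, beside 3.22% of all genes tested, and nothing is read from it. Like Ndn, Smoc1 passed the filter through its KO libraries. Sfmbt2, a Polycomb-associated repressor, had 0.905, 2.41 and 1.44 CPM in M_KO and 0.738, 0.639 and 0.304 CPM in M_WT (1.48, SE 0.52, edgeR adjusted p = 0.478). Herc3, a ubiquitin ligase gene, differed by 0.51 (SE 0.25, edgeR adjusted p = 0.555). On the low side were Htr2a, a serotonin receptor (-1.40, SE 0.67, edgeR adjusted p = 0.555), and Ampd3, an AMP deaminase (-0.64, SE 0.39, edgeR adjusted p = 0.626). Blcap, with 43.8, 38.9 and 42.2 CPM in M_KO and 52.0, 58.5 and 52.2 CPM in M_WT, was the last (-0.39, SE 0.11, edgeR adjusted p = 0.464). The log2 CPM difference in the F pair was 0.99 for Sfmbt2, -1.41 for Htr2a and -0.96 for Ampd3. It had the opposite sign to M for Herc3 (-0.10) and Blcap (0.19).

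**Figure D2:**
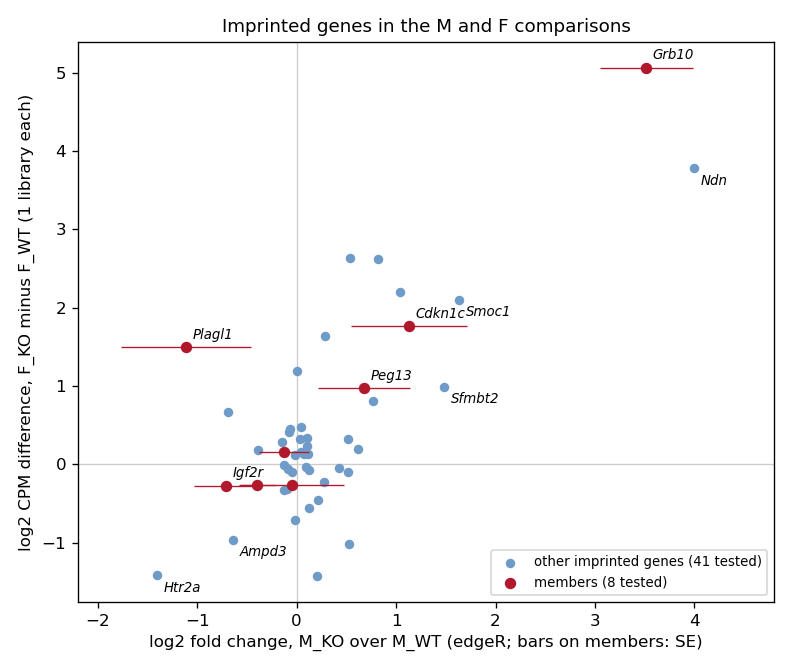
Log2 fold change of M_KO over M_WT (x axis, edgeR, 3 libraries a genotype) against the log2 CPM difference of F_KO minus F_WT (y axis, 1 library a genotype) for the 8 members and the 41 other imprinted genes that passed the filter. Each point is a gene, and horizontal bars on members are the SE. Grb10 lies at 3.51 and 5.06, Ndn at 3.99 and 3.78, and Plagl1 at -1.11 and 1.49.

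Promoter sequences are shown for Grb10 and for Peg3 and Ndn, the imprinted genes nearest to it in pattern. Imprinting marks are often, but not always, carried on CpG dinucleotides near a promoter. Methylation was not measured here, so none of these windows is shown to carry such a mark. The sequences are RefSeq promoters of build GRCm38.p6, 250 bases before to 50 after a start, written 5′ to 3′ on the gene's strand, with every CpG in capitals. Grb10 has entries for 2 starts, and the Ndn entry follows the RefSeq start, which differs from the start of the gene in the count table.
Grb10 upstream start, chr11:12037371-12037670, minus strand: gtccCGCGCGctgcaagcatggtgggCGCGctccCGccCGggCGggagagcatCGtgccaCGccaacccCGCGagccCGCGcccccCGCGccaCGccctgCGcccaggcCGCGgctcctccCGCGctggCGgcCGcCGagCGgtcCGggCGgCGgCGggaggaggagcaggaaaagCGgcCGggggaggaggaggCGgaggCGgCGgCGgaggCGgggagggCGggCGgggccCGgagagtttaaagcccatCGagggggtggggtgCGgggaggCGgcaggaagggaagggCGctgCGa
Grb10 downstream start, chr11:12027922-12028221, minus strand: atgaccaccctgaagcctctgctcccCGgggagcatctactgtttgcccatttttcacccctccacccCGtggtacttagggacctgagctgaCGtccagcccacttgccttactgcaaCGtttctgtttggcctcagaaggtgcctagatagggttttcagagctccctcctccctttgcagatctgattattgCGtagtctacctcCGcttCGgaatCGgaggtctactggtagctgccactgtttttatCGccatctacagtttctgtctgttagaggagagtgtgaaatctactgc
Peg3, chr7:6730370-6730669, minus strand: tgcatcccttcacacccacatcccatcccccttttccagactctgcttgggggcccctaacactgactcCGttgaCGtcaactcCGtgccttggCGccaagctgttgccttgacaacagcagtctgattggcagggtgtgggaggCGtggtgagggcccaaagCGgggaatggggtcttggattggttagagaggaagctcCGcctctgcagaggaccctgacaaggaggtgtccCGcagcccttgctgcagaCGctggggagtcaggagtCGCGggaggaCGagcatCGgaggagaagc
Ndn, chr7:62348027-62348326, plus strand: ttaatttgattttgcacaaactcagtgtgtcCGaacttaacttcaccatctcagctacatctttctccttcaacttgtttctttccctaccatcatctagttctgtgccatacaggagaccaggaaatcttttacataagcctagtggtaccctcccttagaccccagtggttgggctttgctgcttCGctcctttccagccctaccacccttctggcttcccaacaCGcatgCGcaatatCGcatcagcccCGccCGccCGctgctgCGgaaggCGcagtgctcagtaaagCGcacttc

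These windows differ widely in CpG content. The upstream Grb10 window holds 45 CpG, a number reached by 1.93% of the 32851 promoters, whose median is 7. The downstream Grb10 window holds 9, the Peg3 window 13 and the Ndn window 11, which 45.8%, 37.9% and 41.4% of promoters reach, in that order. The hexamer TGCCGC, bound by the imprint-keeping factor ZFP57 when methylated, was searched on both strands. It occurs 1 time in the upstream Grb10 window and 0 times in the other 3, and 11.6% of all promoters hold it. A match is only a match of letters, and the counts carry no information on which Grb10 start was used.

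The 3 genes around Grb10 that could be tested did not share its pattern. Of 24 genes starting within 1 Mb, 3 passed the filter and 14 had no count. Ikzf1, the lymphoid transcription factor Ikaros, had 166.8, 142.9 and 102.9 CPM in M_KO and 192.1, 113.3 and 95.7 CPM in M_WT (log2 fold change 0.04, SE 0.30, edgeR adjusted p = 0.979). Fignl1, a DNA repair ATPase, differed by -0.39 (SE 0.33, edgeR adjusted p = 0.719) and Zpbp, a sperm acrosome gene, by -0.59 (SE 0.86, edgeR adjusted p = 0.853). Ddc and Cobl, which are imprinted neighbours of Grb10 in some mouse tissues, had 11 and 15 counts in all 8 libraries together and were not tested.

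Genes with the pattern most like Grb10 were sought among 11015 protein-coding genes with a mean log2 CPM of at least 0. Likeness was the root mean square difference in log2 CPM over the 8 libraries, each gene centred on its own mean. The nearest were Thbs2 (0.74), Lhx8 (0.87), Tmem132e (0.89), Sfrp1 (1.11) and Lyz1 (1.12). Thbs2, the matrix glycoprotein thrombospondin 2, had 4.53, 5.48 and 1.158 CPM in M_KO and 0.886, 0.373 and 0.709 CPM in M_WT, with 14.1 CPM in F_KO and 0.521 CPM in F_WT. As for Grb10, F_KO was its highest library and M_KO_5642 the lowest KO library. Among imprinted genes, Ndn (0.77) and Peg3 (0.82) were as near, though both fall under the level limit, while Cdkn1c was at 1.52 and the other members at 1.80 or more. The genes were selected for likeness, so these values describe the match and test nothing.

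**Figure D3:**
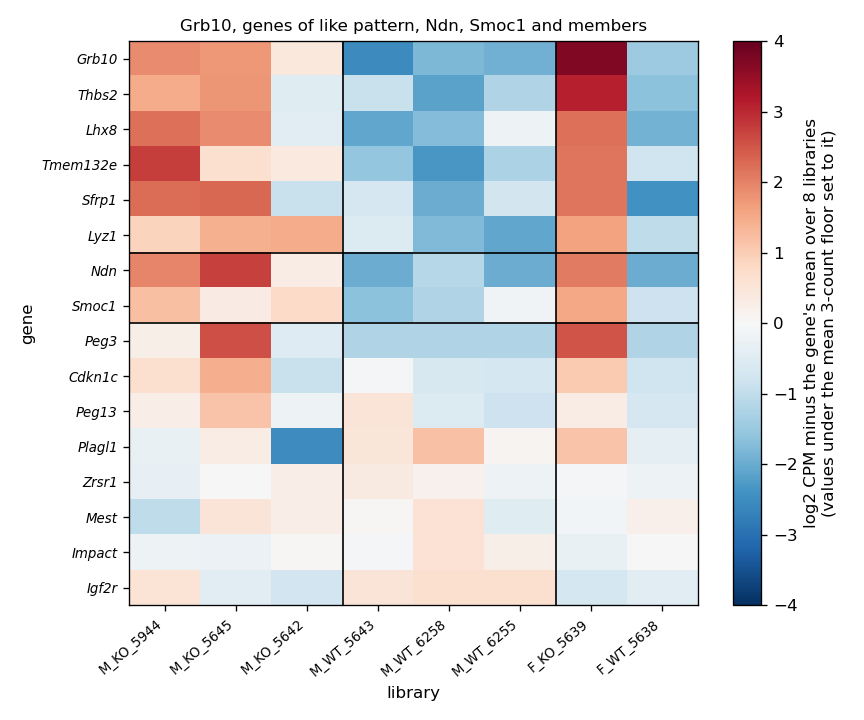
Log2 CPM of each gene minus its own mean over the 8 libraries (colour, values under the 3-count floor set to it), with libraries in columns and genes in rows: Grb10 and the 5 genes most like it, then Ndn and Smoc1, then 8 other members. Grb10, Ndn and Peg3 are higher in the 4 KO columns than in the 4 WT columns, with M_KO_5642 the lowest of their KO columns, whereas Zrsr1, Mest, Impact and Igf2r show no such order.

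The signalling partners of GRB10 were examined in a list of 38 genes, of which 33 were tested. edgeR called 0 of them, beside 0.022% of all genes, and 5 had an unadjusted p under 0.05, beside 9.56%. DESeq2 called 1 of the 35 it could adjust, beside 1.21% of all genes, and the median log2 fold change was 0.07. Insr and Igf1r, the receptors that GRB10 binds, differed by 0.06 (SE 0.45) and -0.22 (SE 0.20), with edgeR adjusted p of 0.977 and 0.748. Igfbp4, a secreted IGF-binding protein, was the gene called by DESeq2. It had 50.02, 125.4 and 140.2 CPM in M_KO and 28.6, 51.8 and 33.5 CPM in M_WT (log2 fold change 1.46, SE 0.41, edgeR adjusted p = 0.457, DESeq2 adjusted p = 0.0394). That DESeq2 call was lost when M_WT_5643, M_WT_6255, M_KO_5645 or M_KO_5642 was left out. Igf1 had 164.0, 166.3 and 155.8 CPM in M_KO and 121.0, 110.7 and 132.8 CPM in M_WT, groups that did not overlap (0.41, SE 0.12, edgeR adjusted p = 0.462). In the F pair, Igfbp4 had 209.3 CPM in F_KO and 147.2 CPM in F_WT, and Igf1 had 318.1 and 179.3 CPM. For both genes the F_WT library lay above every M_KO library. The close relatives of Grb10 failed edgeR's filter. Grb7 had 1, 5 and 0 counts in M_KO and 5, 1 and 0 counts in M_WT. Grb14 had 5, 15 and 3 counts in M_KO and 3, 0 and 1 counts in M_WT.

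Markers of other cells were set beside these results. The 7 B cell markers summed to 309.7, 608.9 and 197.5 CPM in M_KO and 410.6, 136.1 and 132.1 CPM in M_WT, with 674.4 CPM in F_KO and 404.8 CPM in F_WT. All 7 had a positive log2 fold change, and edgeR and DESeq2 called 0 of them. F_KO had both the highest Grb10 level and the highest B cell marker sum of the 8 libraries. M_WT_5643, the library with the lowest Grb10 level, had a higher B cell marker sum than M_KO_5944 and M_KO_5642. The 10 fibroblast and mesothelium markers, from cells that line the cavity, summed to 4.47 to 7.31 CPM in M_KO and 4.76 to 12.3 CPM in M_WT, with 5.35 CPM in F_KO and 3.30 CPM in F_WT. The 6 neutrophil markers summed to 252.2 to 615.7 CPM in M_KO and 203.6 to 384.7 CPM in M_WT, with 537.1 CPM in F_KO and 249.7 CPM in F_WT. The 3 of them that were tested had a positive log2 fold change, and edgeR and DESeq2 called 0. The 6 dendritic cell markers summed to 12.2 to 16.05 CPM in M_KO and 23.7 to 42.0 CPM in M_WT, with 18.8 CPM in F_KO and 22.1 CPM in F_WT. The dendritic cell sums did not overlap and DESeq2 called 1 marker, Cd209a, as it did 1 macrophage marker, while edgeR called none in either list. None of the B cell, fibroblast and mesothelium, neutrophil or dendritic cell markers was at 0 in all 8 libraries. Markers of T cells (0.878 to 2.38 CPM in M_KO, 0.506 to 2.13 CPM in M_WT), eosinophils (0.719 to 1.47 CPM in M_KO, 0.456 to 1.97 CPM in M_WT) and endothelium (1.49 to 5.03 CPM in M_KO, 2.68 to 6.18 CPM in M_WT) were low. Mast cell and basophil markers summed to 1.72 to 23.9 CPM in M_KO and 3.44 to 17.8 CPM in M_WT. The part of these cells in the Grb10, Peg3 and Ndn values was not tested.

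**Figure D4:**
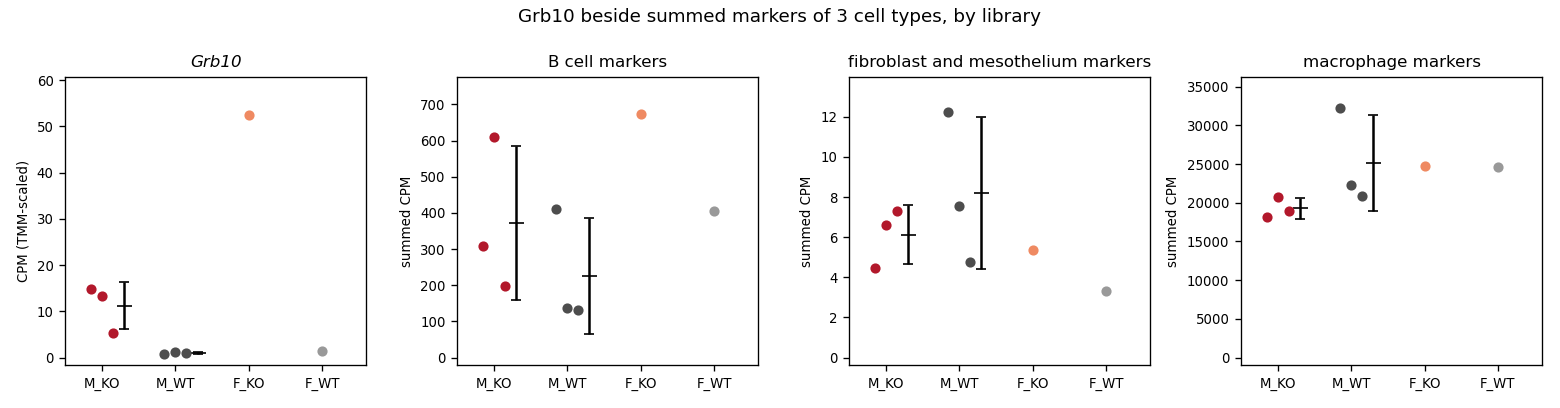
Grb10 level (left panel, TMM-scaled CPM) beside the summed CPM of B cell, fibroblast and mesothelium, and macrophage markers (linear y axes, 1 scale per panel), with 1 point per library in the order M_KO, M_WT, F_KO and F_WT. The horizontal bar is the mean and the error bar the SD of 3 libraries. The B cell and fibroblast panels show overlapping M_KO and M_WT points, while the Grb10 and macrophage panels show M_KO and M_WT points that do not overlap.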

How the data were processed

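Groups were taken from the sample titles and genotype labels. Every title carries a different animal number, and litters or days are not named, so p-values measure the spread between these libraries. The labels' protocols name the NEBNext Ultra RNA kit for library preparation. Per the submitters' processing notes, the tools included featureCounts 1.5.0-p3, HISAT2 2.0.5 and DESeq2 1.16.1, and the builds were GRCm38 and mm10. Multi-mapping, the strand setting and the annotation were not given in the sources used here, and the kit's name does not settle the strand.

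The deposited counts are whole reads per gene, not normalized by the authors. The deposited FPKM values are scaled by the authors to gene length and library size. The authors' deposited table of M_KO against M_WT holds a signal per library (scaled counts), p-values and log2 fold changes over 23513 rows. No value column lacked a sample or group (0 columns), and the 8 columns of a second table of called genes were not used.

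The quasi-likelihood test of edgeR 4.0.16 (R 4.3.3) was run on the counts after TMM scaling and the default filter on genotype. Benjamini-Hochberg adjustment covered all 13646 genes, with a threshold of 0.05. The biological coefficient of variation was 0.30 with 4 residual degrees of freedom. The interaction of genotype and letter used 13751 genes in 8 libraries. Log2 CPM differences in the F pair used a prior count of 2, and intervals are 95% Clopper-Pearson intervals. Without molecular identifiers reads are not independent molecules, so intervals and floors cover counting error only. On simulated data of 13440 genes with the M design, the test recovered 19% of 2-fold and 93% of 4-fold changes, and 6 of 118 calls were false. The simulation gave every gene the same coefficient of variation, 0.30, and changed only genes above a minimum level. Its recovery therefore does not carry over to low genes or to genes that vary more between libraries. DESeq2 1.42.0, other scalings and filters, limma 3.58.1 on log2 FPKM and leaving out each library were alternatives.

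The 10 members and all gene lists were chosen with earlier results of these data known. Named beside the members are Men1, imprinted genes called by edgeR or DESeq2, and up to 8 more whose M libraries do not overlap. Also named are genes that start within 1 Mb of Grb10 and pass the filter, the 5 protein-coding genes most like it, Grb7, Grb14, and up to 4 genes called by DESeq2 per pathway list. Other genes, such as Airn, Ddc, Cobl, Insr, Igf1r and Igf1, were named after their values were seen. RefSeq promoters were matched to the members by symbol, and entries on chromosome 18, where Impact lies, were left out. That left promoters for 7 of the 10 members.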

Additional observations from a re-analysis of the deposited data

How the results depend on the processing

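Of 214 values recomputed under alternatives, 188 stayed within the spread or 1.5 times the count and 26 moved. A change of sign was counted as a reversal only for a value larger than its spread, and there was none. Smaller values did change sign. Without M_KO_5944 the log2 fold change of Zrsr1 went from -0.13 to 0.01 and that of Mest from -0.04 to 0.28. Over all genes, edgeR called 3 in the M comparison, DESeq2 188, edgeR without a filter 16 and the fit of all 8 libraries with letter as covariate 1. Leaving out 1 M library gave 0 (without M_WT_6255) to 21 calls (without M_WT_5643), with 5 without M_WT_6258 and 5 without M_KO_5944. The interaction called 3 genes, but 6 when M_WT_6258 was left out, 1 when M_KO_5944 was, and 0 when either M_KO_5645 or M_WT_6255 was. Among other imprinted genes, DESeq2 called 1 against 0 with edgeR, and 0 to 2 with a library left out, an alternative chosen after seeing the data. The second was Ppp1r9a, without M_KO_5642. DESeq2 called 1 of the GRB10 partners, and 0 to 1 with a library left out (Irs2 without M_WT_5643, Nedd4 without M_KO_5642, otherwise Igfbp4). Without M_KO_5944 it called 1 gene of the imprint maintenance list, Dnmt3a. Tested members more than 2-fold higher in M_KO numbered 2 (Grb10 and Cdkn1c), and 1 to 3 with a library left out: 1 without M_KO_5645 and 3 without M_WT_5643. With limma on log2(FPKM + 1) there were 0, and the Grb10 difference was 0.97, on a scale that shrinks low levels by construction. Unless a cause is given, it was not tested. Scaling shifted the median of all genes by under 0.1 (log2). Depth limits Peg3, Snrpn and Mest, and overlapping genes may also limit Snrpn. No paired analysis was possible because the animal numbers are not shared between groups.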

Other observations

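Genes that set or keep imprints were read from a list of 29, of which 25 were tested. edgeR called 0 of them, beside 0.022% of all genes, and 2 had an unadjusted p under 0.05, beside 9.56%. DESeq2 called 0, beside 1.21% of all genes, and the median log2 fold change was 0.07. Dnmt3a, the DNA methyltransferase that sets germline imprints, had 39.4, 52.7 and 52.0 CPM in M_KO and 31.4, 23.9 and 32.1 CPM in M_WT. The M libraries did not overlap (log2 fold change 0.71, SE 0.18, edgeR adjusted p = 0.434, DESeq2 adjusted p = 0.0946). The F pair did not show this difference, with 39.2 CPM in F_KO and 41.1 CPM in F_WT. Suz12, a subunit of the Polycomb complex that methylates histone H3, had 68.2, 64.8 and 72.8 CPM in M_KO and 83.2, 82.3 and 88.0 CPM in M_WT (-0.31, SE 0.10, edgeR adjusted p = 0.474). Zfp57, the factor that binds methylated TGCCGC, had 2.55, 3.38 and 0.359 CPM in M_KO and 1.28, 0.905 and 0.506 CPM in M_WT, with overlapping groups (edgeR adjusted p = 0.642). Trim28, its corepressor, differed by 0.07 (SE 0.10, edgeR adjusted p = 0.862).

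Imprinted neighbours of Ndn and Peg3 were at 0 or low. Magel2, beside Ndn, and Usp29 and Zim3, in the Peg3 region, had 0 counts in all 8 libraries, and Zim1 had 0.102 CPM in M_KO_5645 alone. Mkrn3, also near Ndn, had 0.170, 0.820 and 0.160 CPM in M_KO and 0.246, 0.426 and 0.304 CPM in M_WT, with overlapping groups. Peg12, in the same region, had 1.13, 0.717 and 0.399 CPM in M_KO and 0.541, 0.373 and 0.608 CPM in M_WT, with 1.05 CPM in F_KO and 0.0869 CPM in F_WT. These genes were named after their values were seen.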
